A study of Mus musculus with 1 sample.

Results

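Csf1, Il34, Csf2, Csf1r, Il1a, Il1b, Il1rn, Il18, Tnf and Il10 encode the ligands of the Csf1 receptor, that receptor, a further colony stimulating factor, and the inflammatory cytokines of the IL-1 and TNF families with 2 of the factors that restrain them. They were taken by name as 10 of the 32285 genes in a single-cell count table, and all 10 had UMIs (unique molecular identifiers, each counted as 1 captured RNA molecule). The table came from 1 library of subcutaneous MC38 tumors, a mouse colorectal cancer cell line, grown in female C57BL/6J mice that were 4 to 6 weeks old when bought. Cells of 5 control tumors had been mixed and read with 10x Genomics 3' v3.1 chemistry. The label gives the genotype as WT and names no shRNA, and the library was taken as the pool of tumors from MC38 cells with the non-targeting shNTC construct, MC38 being a line kept in culture and implanted under the skin. The Atp6v0a1 knockdown pool was not analysed here. The cells cannot be assigned to mice, so there were no replicates, no test was possible, and every interval given is a 95% interval for counting error only.

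Csf1 and Il34 are secreted proteins that bind the same receptor, the tyrosine kinase Csf1r, and this signal is known for keeping monocytes and macrophages alive and for drawing them into tumors. Csf2 (GM-CSF) acts on myeloid cells through another receptor. Il1a and Il1b activate the IL-1 receptor Il1r1, Il1rn occupies that receptor without activating it, Il18 is a relative of Il1b that is also matured by inflammasomes, Tnf is a general inflammatory signal, and Il10 is a cytokine that restrains macrophages.

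Of 5307 called cells, 4468 were kept, with 95669634 UMIs and a median of 10528 per cell. Clusters were named from marker genes that did not include the 10 genes. Tumor-like cells (1887) had Xist, which is high in cells of female hosts, at 3.17 UMIs per 1000000 UMIs of the group (CPM), against 821 in macrophage-like, 665 in T and NK-like and 589 CPM in fibroblast-like cells. The 8 tumor markers stood at a summed 2244 CPM in tumor-like cells, against 150 in macrophage-like cells. Of these markers, 7 had UMIs in tumor-like cells, while the epithelial keratin Krt18 was at 0 although the label calls the line epithelial. Macrophage-like cells (1575) had the macrophage list at a summed 46790 CPM, against 314 in tumor-like cells. The other groups used were monocyte-like (212 cells), DC-like (dendritic cell-like, 51), neutrophil-like (40), T and NK-like (116) and fibroblast-like cells (93), whose own marker lists stood at 4674, 774, 48917, 5255 (T list) and 13264 CPM, with Rgs5 of the fibroblast list at 0. Myeloid-like cells, which are the macrophage-like, monocyte-like, DC-like and neutrophil-like groups together, were 1878 cells and 17.1% of the UMIs, while tumor-like cells gave 80.9%. Depth differed widely between groups, from a median of 37762 UMIs in tumor-like to 8779 in macrophage-like and 711.5 in neutrophil-like cells. Macrophage-like cells comprised an interferon-response state (513 cells, led by Ifit2, Ifit3 and Hspa1a), an Arg1 state (376), a proliferating state (196) and clusters called by their leading genes Igkc/Ighg2b (468) and Retnla/Cbr2 (22). Tumor-like clusters were called by their leading genes Tm4sf1/Tnfrsf12a (976 cells), H19/Fn1 (622) and Acta1/Mrps6 (289). A further cluster of 398 cells, with a median of 859.5 UMIs, received no name. It was led by the hemoglobin genes Hbb-bs, Hba-a1, Hba-a2 and Hbb-bt and by Acta2, Rgs5 and Tagln, genes of contractile mural cells, and had Lyz2 at 1930 CPM.

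The 10 genes divided between the compartments. In a plain count of where each gene's UMIs lay, tumor-like cells held 93.7% of the 5545 Csf1 UMIs (93.1 to 94.3%) and 96.7% of the 4051 Il34 UMIs (96.1 to 97.3%). Myeloid-like cells held 95.8% of the 7874 UMIs of Csf1r. They also held 95.8% of the 5850 Il1b UMIs, 94.3% of the 1696 Il1rn UMIs, 93.5% of the 185 Il1a UMIs, 90.4% of the 416 Tnf UMIs and 81.8% of the 33 Il10 UMIs. Il18 was split, with 52.7% of its 847 UMIs in myeloid-like cells (49.2 to 56.1%) and 46.8% in tumor-like cells. Csf2 was almost absent, with 40 UMIs, of which T and NK-like cells held 95%.

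**Figure D1:**
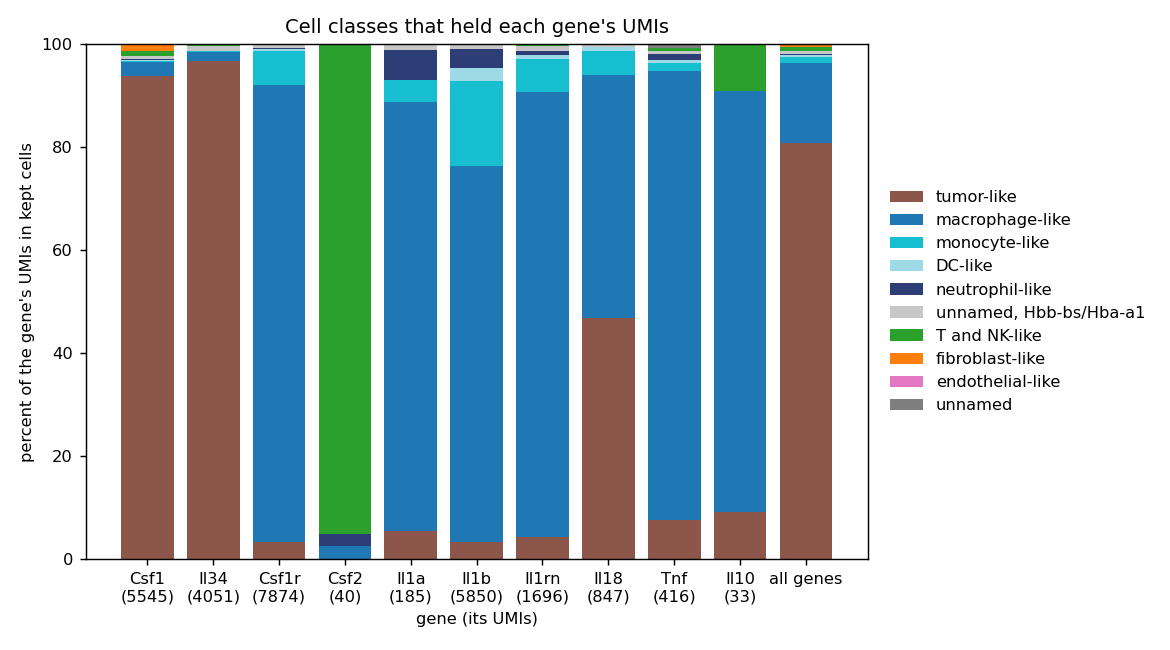
Bars show the percent of each gene's UMIs in kept cells (y axis) that lay in each cell class, with the gene's UMIs in parentheses and all genes at the right. Tumor-like cells hold 93.7% of Csf1 and 96.7% of Il34 UMIs, and macrophage-like cells make up most of the bars of Csf1r, Il1a, Il1b, Il1rn, Tnf and Il10.

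Levels allow for the unequal depth of the groups. With a difference of at least 2-fold and at least 10 UMIs as the rule of size, 7 of the 9 genes that had enough UMIs were higher in myeloid-like than in tumor-like cells, where 22.6% of all 14795 genes were. The ratios were 136 for Csf1r (120 to 154), 136 for Il1b (118 to 158), 104 for Il1rn (81.9 to 133), 81.7 for Il1a (43.4 to 173), 55.5 for Tnf (38.7 to 82.4), 42.5 for Il10 (13.1 to 219) and 5.32 for Il18 (4.64 to 6.11). Csf1, at a ratio of 0.167 (0.144 to 0.194), and Il34, at 0.0916 (0.0720 to 0.115), were lower, where 28.8% of all genes were. The median log2 ratio was 3.36 over the 9 genes and -0.15 over all genes compared. Csf2 had 2 UMIs in these groups and was not compared.

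**Figure D2:**
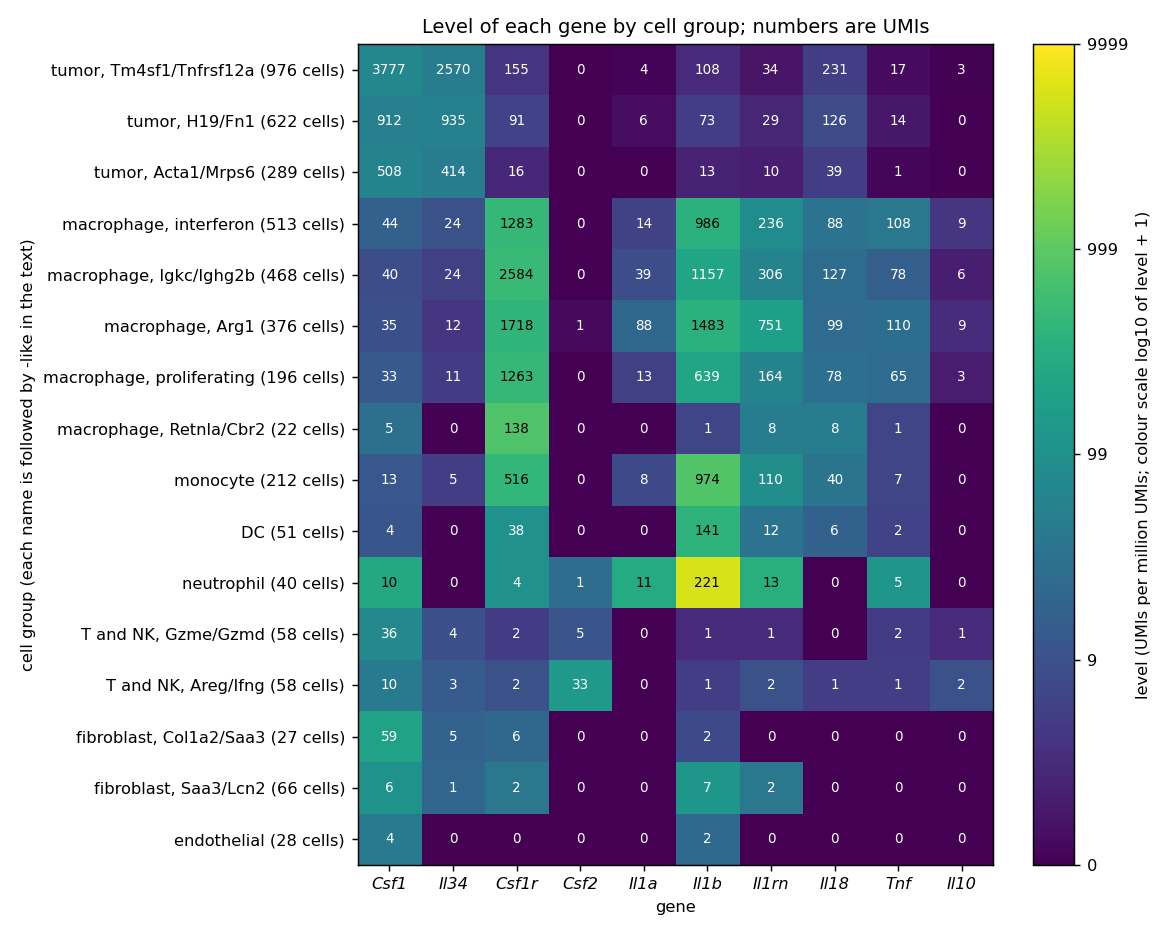
Each row is a cell group, each column a gene, the colour the level in CPM on a log scale, and the number in a cell the UMIs behind it. Il34 is brightest in the tumor rows, and Csf1r and Il18 in the macrophage and monocyte rows. Csf1 is bright in the tumor rows and brighter in the fibroblast rows and the neutrophil row, the last from 10 UMIs. Il1a, Il1b, Il1rn and Tnf are brightest in the neutrophil row, which rests on 11, 221, 13 and 5 UMIs for these genes.

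The sequences below show the 250 bases before the start of Csf1, whose UMIs lay mostly in tumor-like cells, and of the myeloid genes Il1b and Tnf, so that the start regions of genes with opposite patterns can be read side by side. They come from RefSeq on GRCm38.p6, all from the minus strand, 5′ to 3′, at chr3:107760470-107760719 for Csf1, chr2:129371140-129371389 for Il1b and chr17:35202008-35202257 for Tnf. Capitals mark matches, on either strand, to the NF-kB-type letters GGGNNNNNCC, the PU.1-type letters GAGGAA, the AP-1-type letters TGANTCA and the TATA box letters TATAAA.
Csf1: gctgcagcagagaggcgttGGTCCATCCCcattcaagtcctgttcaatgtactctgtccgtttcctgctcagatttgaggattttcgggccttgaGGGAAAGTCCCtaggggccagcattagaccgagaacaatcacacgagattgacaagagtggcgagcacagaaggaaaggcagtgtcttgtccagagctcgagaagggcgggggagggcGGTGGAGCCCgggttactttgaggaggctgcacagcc
Il1b: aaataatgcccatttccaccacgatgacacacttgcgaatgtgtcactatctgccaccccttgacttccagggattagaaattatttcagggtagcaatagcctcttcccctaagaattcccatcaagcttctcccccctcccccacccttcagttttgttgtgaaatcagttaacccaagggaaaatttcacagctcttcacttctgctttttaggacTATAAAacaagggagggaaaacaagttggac
Tnf: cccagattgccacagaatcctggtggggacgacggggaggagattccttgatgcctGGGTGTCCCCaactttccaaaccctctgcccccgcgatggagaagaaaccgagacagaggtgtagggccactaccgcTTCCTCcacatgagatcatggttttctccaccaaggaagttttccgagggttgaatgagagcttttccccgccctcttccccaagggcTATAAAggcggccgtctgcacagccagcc
Csf1 had 4 NF-kB-type matches, of which a pair overlapped, and none of the other motifs, with the nearest match beginning 37 bases before the start. Il1b had a TATA box 31 bases before the start and no other match. Tnf had a TATA box 29 bases, a PU.1-type match 117 bases and an NF-kB-type match 194 bases before the start. Of 32851 promoters of the same table, 45.8% held the NF-kB-type letters, 23.3% the PU.1-type, 6.75% the AP-1-type and 12.4% the TATA box letters. Of the 10 genes, 7 were in that table.

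Csf1 (chromosome 3, 107741048 to 107760469, minus strand, GRCm38) encodes the main ligand of the receptor. Its level was 67.2 CPM in tumor-like cells (65.4 to 69.0), with UMIs in 1358 of 1887 cells and at most 31 in a cell. The tumor-like clusters lay close together, at 72.6 CPM in Tm4sf1/Tnfrsf12a cells, 54.3 in H19/Fn1 cells and 59.5 in Acta1/Mrps6 cells. The level in Tm4sf1/Tnfrsf12a cells was 1.34 times that in H19/Fn1 cells (1.24 to 1.44) and 1.22 times that in Acta1/Mrps6 cells (1.11 to 1.34), while H19/Fn1 and Acta1/Mrps6 cells did not differ beyond their counting error (ratio 0.912, 0.817 to 1.02). The 10% of tumor-like cells with the most Csf1 UMIs held 40.5% of them, and the deepest 10% of cells held 24.5% of all UMIs.

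In the main grouping, fibroblast-like cells had the gene at a higher level than tumor-like cells. Csf1 stood there at 190 CPM (146 to 242), from 65 UMIs in 23 cells, which was 2.82 times the tumor-like level (2.17 to 3.60), and at 171 CPM without the cell with the most UMIs. Most of these UMIs came from the deeper fibroblast-like cluster, led by Col1a2 and Saa3, with 59 UMIs in 18 of its 27 cells and 204 CPM, or 3.03 times the tumor-like level (2.30 to 3.92). The shallow Saa3/Lcn2 cluster of 66 cells gave 6 UMIs and 113 CPM. Over the 14 other settings with such a group the fibroblast-like level lay between 58.7 and 190 CPM, never above the main value. It stayed within the counting interval of the main value in 6 of the 14. It was below the tumor-like level in the grouping where 870 cells took the fibroblast-like name.

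T and NK-like cells had Csf1 at 65.2 CPM (46 UMIs in 24 cells), a level that did not differ from that of tumor-like cells beyond counting error (ratio 0.970, 0.710 to 1.30). It was 45.9 CPM without the cell with 14 UMIs. Macrophage-like cells had 10.6, monocyte-like cells 11.1 and DC-like cells 10.8 CPM, the last from 4 UMIs. In neutrophil-like cells 10 UMIs in 3 cells gave 260 CPM, or 112 CPM without the cell with the most UMIs. With every cell thinned to 1000 UMIs, 6.72% of tumor-like cells (5.62 to 7.95%) and 1.43% of macrophage-like cells (0.898 to 2.16%) had a Csf1 UMI. Unthinned, these shares were 72.0% and 8.83%. Fibroblast-like cells had it in 3 of the 40 cells deep enough to be thinned, or 7.5% (1.57 to 20.4%). That interval holds the tumor-like share, so no difference was detectable at equal depth.

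Il34 (chromosome 8, 110741829 to 110805924, minus strand), the other ligand of the receptor, stood at 50.7 CPM in tumor-like cells (49.1 to 52.3), from 3919 UMIs. It was at 49.4, 55.6 and 48.5 CPM in the Tm4sf1/Tnfrsf12a, H19/Fn1 and Acta1/Mrps6 clusters, so that the order of the former pair was the opposite of that for Csf1 (ratio 0.888, 0.824 to 0.958). Unlike Csf1, the Il34 level in fibroblast-like cells, 17.5 CPM from 6 UMIs, lay below that of tumor-like cells at a ratio of 0.345 (0.127 to 0.753). Macrophage-like cells had 4.80 CPM and T and NK-like cells 9.92 CPM (7 UMIs), and DC-like and neutrophil-like cells had no UMI. Thinned to equal depth, 5.70% of tumor-like cells (4.69 to 6.85%) and 1.04% of macrophage-like cells had an Il34 UMI, against an unthinned 68.0% of tumor-like cells. At that depth Il34 was found in 4% of tumor-like cells with Csf1 (1.31 to 9.09%) and in 5.82% of those without it, and no excess of cells with both ligands was detectable.

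Free RNA in the droplets gives UMIs of a gene in cells that do not express it. The tumor genes Rhox5 and Shisal2b were found in macrophage-like cells at 6.04% and 7.59% of their tumor-like level. Il34 stood there at 9.47% of its tumor-like level (7.38 to 12.0%), an interval that lies above the value of Rhox5 and holds that of Shisal2b, and Csf1 at 15.8% (13.4 to 18.5%), above both. The part of free RNA in these levels was not tested. In T and NK-like cells the tumor genes stood at 7.35% and 11.8% of their tumor-like level, Il34 at 19.6% (7.87 to 40.4%) and Csf1 at 97.0%. In Col1a2/Saa3 fibroblast-like cells they stood at 7.45% and 1.60%, and Csf1 at 303%. In neutrophil-like cells Rhox5 reached 41.1% and Shisal2b 24.1%, the latter from 2 UMIs, with Csf1 at 387% (185 to 712%) from 10 UMIs. In the shallow Saa3/Lcn2 fibroblast-like cluster Rhox5 and Shisal2b reached 40.7% and 43.7%, with Csf1 at 168% (61.7 to 367%). In the unnamed Hbb-bs/Hba-a1 cluster Csf1 and Il34 were at 57.0 and 61.4 CPM, close to the tumor-like levels. Rhox5 and Shisal2b were also high there, at 297 and 133 CPM, where the tumor-like clusters had 640 to 771 and 122 to 265 CPM. The part of free RNA in this cluster was not tested.

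**Figure D3:**
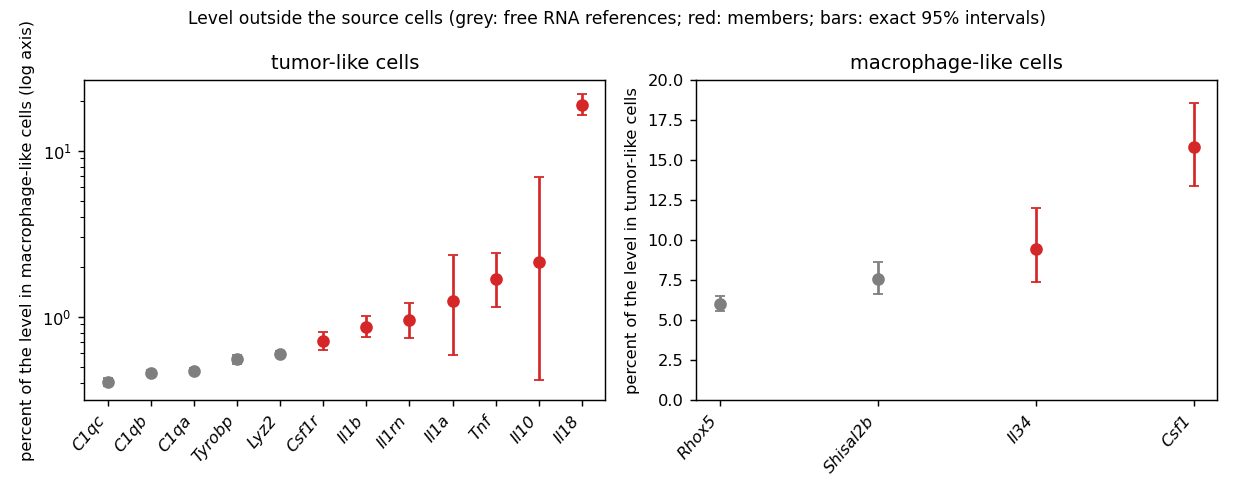
Points give a gene's level in tumor-like cells as a percent of its macrophage-like level (left, log axis) and in macrophage-like cells as a percent of its tumor-like level (right), with exact 95% intervals. Grey points are the reference genes for free RNA and red points the genes described here, and Il18 on the left, at 18.9%, and Csf1 on the right, at 15.8%, stand farthest above the grey points.

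Csf1r (chromosome 18, 61100598 to 61132149, plus strand, GRCm38) encodes the receptor for both ligands and was a gene of macrophage-like and monocyte-like cells. Its level was 472 CPM in macrophage-like cells (461 to 483) and 440 CPM in monocyte-like cells (403 to 480), which did not differ beyond counting error (ratio 0.933, 0.851 to 1.02). DC-like cells had 103 CPM (72.8 to 141), or 0.218 times the macrophage-like level (0.154 to 0.299), although this group was small and its level ran from 26.9 to 359 CPM across the other groupings. Neutrophil-like cells had 4 UMIs, which gave 104 CPM and a ratio of 0.220 (0.0599 to 0.564). Tumor-like cells were at 3.39 CPM, or 0.717% of the macrophage-like level (0.632 to 0.811%), where the myeloid genes Lyz2, C1qa, C1qb, C1qc and Tyrobp stood at 0.404 to 0.599%. Without the cell with the most Csf1r UMIs the tumor-like level was 3.27 CPM. Fibroblast-like cells had 23.3 CPM from 8 UMIs and T and NK-like cells 5.67 CPM from 4 UMIs.

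The receptor varied little among the macrophage-like clusters. It stood at 514 CPM in the Igkc/Ighg2b cluster, 466 in the interferon-response state, 460 in the proliferating state and 419 in the Arg1 state. The small Retnla/Cbr2 cluster of 22 cells had 794 CPM (667 to 938), and 695 CPM without the cell with the most UMIs. Thinned, 35.6% of macrophage-like cells (33.2 to 38.1%), 30.8% of monocyte-like cells (24.6 to 37.5%) and 14.3% of DC-like cells (5.94 to 27.2%) had a Csf1r UMI, against 0.430% of tumor-like cells. The unthinned shares of the former pair were 83.2% and 79.2%. Of macrophage-like cells, the top 10% held 29.3% of the Csf1r UMIs, where the deepest 10% held 23.0% of all UMIs.

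Csf2 (chromosome 11, 54247271 to 54249667, minus strand), a cytokine of activated lymphocytes among other cells, had 40 UMIs in 7 cells. Of these, 38 lay in 5 T and NK-like cells, and 33 of the 38 in 1 cell of the Areg/Ifng cluster. The level in T and NK-like cells was 53.9 CPM with that cell and 7.17 CPM without it. The cell had 7838 UMIs, with 345 of Ifng, 30 of Il2, 28 of Il13 and 21 of Areg, 9 UMIs of the T cell genes Cd3e, Cd3g, Trac and Trbc2 together, 2 of Cd4, and none of Cd8a, Foxp3, Ncr1, Il4 or Il5. The other 4 cells, with 5 UMIs, belonged to the Gzme/Gzmd cluster, in which all 6 NK markers had UMIs. The T cell gene Cd3e also stood there at 416 CPM. Of the 5 T and NK-like cells with Csf2, 4 had UMIs of Cd3e and 1 of Ncr1, beside 68.5% and 9.01% of the other T and NK-like cells. The chemokine receptor gene Cxcr6 had UMIs in every cell of these 5 and in 44.1% of the other T and NK-like cells, a gene looked at after its values were seen. Tumor-like cells had 0 Csf2 UMIs, which allows a level of up to 0.0388 CPM, and the remaining 2 UMIs were in 1 macrophage-like cell of the Arg1 state and 1 neutrophil-like cell.

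Il1b (chromosome 2, 129364570 to 129371139, minus strand) encodes the secreted IL-1 cytokine that is made as a precursor and matured by inflammasomes. Its start region, with the TATA box, is printed above. The levels were far apart across the myeloid groups, from 5741 CPM in neutrophil-like cells (5009 to 6550) to 831 in monocyte-like (780 to 885), 382 in DC-like (321 to 450) and 288 in macrophage-like cells (280 to 297). None of these neighbours overlapped in their intervals. Neutrophil-like cells had 19.9 times the macrophage-like level (17.3 to 22.8) and 6.91 times the monocyte-like level (5.94 to 8.0). The neutrophil-like value rested on few cells, since 4 of the 40 cells held 85.1% of its 221 UMIs, and it was 3986 CPM without the top cell and 1178 CPM without the top 4. Over the other groupings it ran from 363 to 7622 CPM, the monocyte-like level from 529 to 831 CPM and the DC-like level from 359 to 723 CPM. Thinned to 1000 UMIs, an Il1b UMI was found in 34.1% of monocyte-like cells (27.7 to 41.0%), 26.5% of DC-like cells (14.9 to 41.1%), 17% of macrophage-like cells (15.1 to 18.9%) and 0.430% of tumor-like cells. All 6 neutrophil-like cells deep enough to be thinned had one, and 34 were left out.

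Il1b was unevenly spread among macrophage-like cells. It had UMIs in 41.1% of them, up to 130 in a cell, and the top 10% of cells held 68.7% of the UMIs, where for Csf1r they held 29.3%. By cluster it stood at 362 CPM in the Arg1 state and 358 CPM in the interferon-response state, and at 233 and 230 CPM in the proliferating state and the Igkc/Ighg2b cluster. The ratio of the interferon-response state to the Igkc/Ighg2b cluster was 1.56 (1.43 to 1.70). Monocyte-like cells exceeded the Arg1 state by a ratio of 2.30 (2.12 to 2.49). The monocyte-like group pooled clusters of 86, 76 and 50 cells, of which only that of 76 cells had Il1b among its leading genes. The top 10% of monocyte-like cells held 55.7% of their Il1b UMIs. Levels of the single monocyte-like clusters were not computed. The Retnla/Cbr2 cluster, which had the highest Csf1r level, had 1 Il1b UMI, or 5.75 CPM.

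Il1a (chromosome 2, 129299610 to 129309972, minus strand), an IL-1 cytokine that is active without inflammasome cleavage, was far scarcer. Macrophage-like cells had 154 UMIs in 85 cells, or 10.4 CPM, and the Arg1 state stood out at 21.5 CPM (17.2 to 26.5). The Igkc/Ighg2b cluster had 7.76, the interferon-response state 5.09 and the proliferating state 4.74 CPM, and the Arg1 level was 4.53 times that of the proliferating state (2.52 to 8.85). Neutrophil-like cells had 11 UMIs in 8 cells, which gave 286 CPM and 27.5 times the macrophage-like level (13.4 to 50.5). Over the other settings that ratio ran from 1.59 to 36.6. Monocyte-like cells had 6.83 CPM from 8 UMIs, or 0.656 times the macrophage-like level (0.278 to 1.33), and tumor-like cells 0.129 CPM.

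Il1rn (chromosome 2, 24336853 to 24351494, plus strand), the antagonist of the IL-1 receptor, followed another order. It stood at 338 CPM in neutrophil-like cells (180 to 578, 13 UMIs), 99 in macrophage-like (94.0 to 104), 93.9 in monocyte-like (77.1 to 113) and 32.5 CPM in DC-like cells (12 UMIs). The place of the small groups in this order was not stable, since the neutrophil-like ratio to macrophage-like cells ran from 0.204 to 4.33 over the other settings and was below 1 in 3 of 16, and the DC-like level ran from 9.35 to 79.2 CPM. Macrophage-like and monocyte-like cells did not differ beyond counting error (ratio 0.948, 0.774 to 1.15), whereas for Il1b the monocyte-like level was 2.88 times the macrophage-like level (2.69 to 3.09). Among macrophage-like cells the Arg1 state had 183 CPM (170 to 197), 3.07 times the 59.8 CPM of the proliferating state (2.59 to 3.65), with 85.7 CPM in the interferon-response state and 60.9 in the Igkc/Ighg2b cluster. The 8 UMIs in the Retnla/Cbr2 cluster came from 1 cell. A thinned share of 7.73% of macrophage-like and 7.21% of monocyte-like cells had a UMI, against 0.0538% of tumor-like cells.

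**Figure D4:**
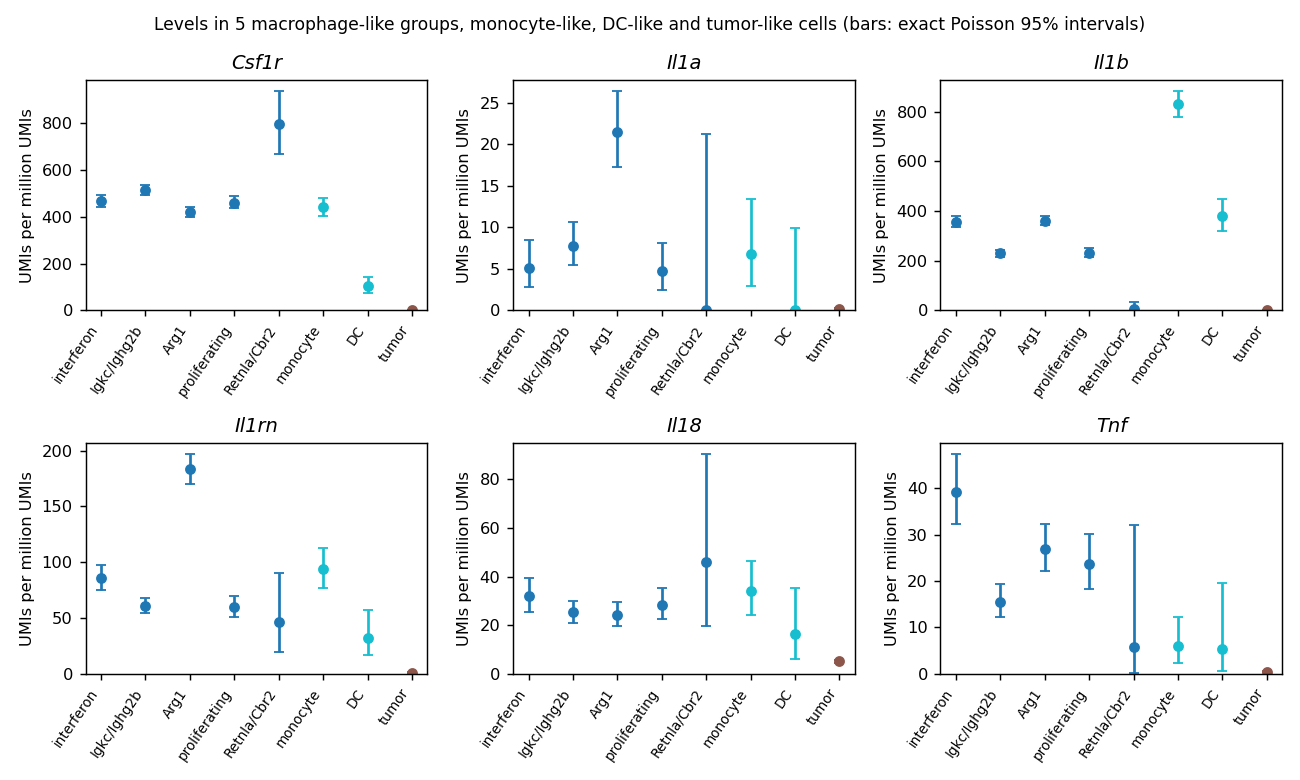
Panels give the level of 6 genes in CPM (y axis, each from 0) in 5 macrophage-like clusters, monocyte-like, DC-like and tumor-like cells, with exact Poisson 95% intervals. Il1a and Il1rn are highest in the Arg1 state, Il1b in monocyte-like cells and Tnf in the interferon-response state. Csf1r is nearly level across the macrophage-like clusters and monocyte-like cells apart from the Retnla/Cbr2 cluster, and is lower in DC-like and tumor-like cells.

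Set against each other within a group, antagonist and cytokine gave a graded ratio. There were 0.506 Il1rn UMIs per Il1b UMI in the Arg1 state (0.463 to 0.553), 0.264 in the Igkc/Ighg2b cluster (0.232 to 0.30), 0.257 in the proliferating state (0.215 to 0.305) and 0.239 in the interferon-response state (0.207 to 0.276). The latter 3 did not differ beyond their intervals. Monocyte-like cells had 0.113 (0.0919 to 0.138), DC-like cells 0.0851 (0.0430 to 0.153) and neutrophil-like cells 0.0588 (0.0308 to 0.103), below the 4 macrophage-like clusters named. The neutrophil-like value turned on the 4 cells with the most Il1b UMIs. Without them 12 Il1rn and 33 Il1b UMIs gave 0.364 (0.171 to 0.722), an interval that holds the values of all 4. At equal depth, Il1rn was found in 7.28% of macrophage-like cells with Il1b (4.44 to 11.1%) and in 7.82% of those without it (6.41 to 9.44%), so that no excess of cells with both was detectable.

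**Figure D5:**
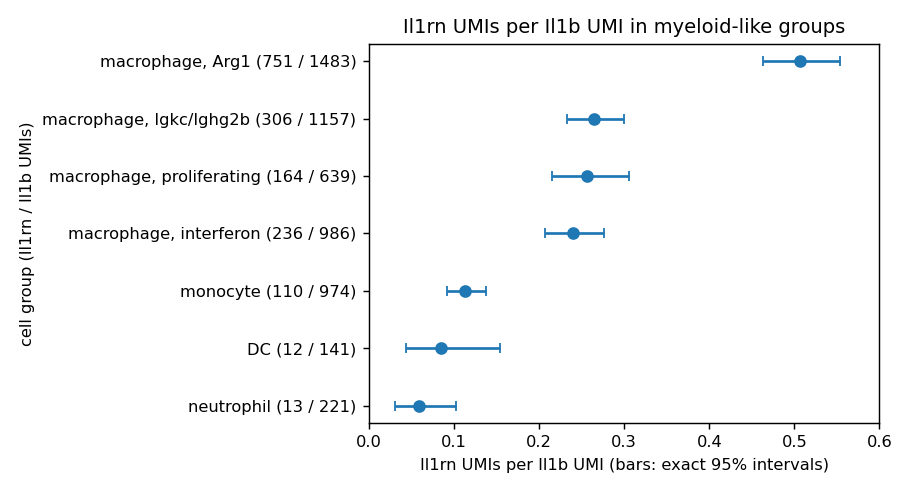
Points give the Il1rn UMIs per Il1b UMI (x axis) with exact 95% intervals in 7 myeloid-like groups (y axis), with the UMIs of both genes in parentheses. The Arg1 state lies highest at 0.506, the other macrophage-like clusters between 0.239 and 0.264, and the monocyte-like, DC-like and neutrophil-like groups at 0.113 or below, where the neutrophil-like value is 0.364 without the 4 cells with the most Il1b UMIs.

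Il18 (chromosome 9, 50554827 to 50581840, plus strand) was the cytokine with the least contrast between compartments. Macrophage-like cells had 27.0 CPM (24.5 to 29.8), monocyte-like cells 34.1 CPM (24.4 to 46.5) and DC-like cells 16.2 CPM from 6 UMIs. The 4 larger macrophage-like clusters lay between 24.2 and 32.0 CPM and no pair of them differed beyond counting error. Tumor-like cells had 5.12 CPM (4.63 to 5.65), with 7.5 in the H19/Fn1 cluster, 4.44 in the Tm4sf1/Tnfrsf12a cluster and 4.57 in the Acta1/Mrps6 cluster. The tumor-like level was 18.9% of the macrophage-like level (16.4 to 21.8%), whereas Il1b stood at 0.870%, Il1rn at 0.953% and the free RNA references at no more than 0.599%. A tumor-like cell of 103631 UMIs held 24 of the 194 Il1b and 7 of the 73 Il1rn UMIs of tumor-like cells. Without it these levels fell from 2.51 to 2.20 CPM and from 0.944 to 0.854 CPM. T and NK-like cells had 1 UMI, and neutrophil-like and fibroblast-like cells had 0, a count that in neutrophil-like cells allows up to 77.9 CPM and so could not have shown the macrophage-like level. A thinned share of 1.82% of macrophage-like, 3.85% of monocyte-like and 0.645% of tumor-like cells had an Il18 UMI.

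Tnf (chromosome 17, 35199381 to 35202007, minus strand) stood at 24.5 CPM in macrophage-like cells (22.0 to 27.1), from 362 UMIs in 217 cells. The interferon-response state had 39.2 CPM (32.2 to 47.4), the Arg1 state 26.8, the proliferating state 23.7 and the Igkc/Ighg2b cluster 15.5 CPM. The ratio of the interferon-response state was 2.53 to the Igkc/Ighg2b cluster (1.87 to 3.43) and 1.46 to the Arg1 state (1.11 to 1.92). In monocyte-like cells Tnf was low, at 5.97 CPM from 7 UMIs and 0.244 times the macrophage-like level (0.0975 to 0.508), in contrast to Il1b. That level ran from 4.10 to 17.3 CPM across the other groupings. Tnf UMIs per Il1b UMI were 0.0849 in macrophage-like and 0.00719 in monocyte-like cells. Neutrophil-like cells had 5 UMIs, or 130 CPM and 5.31 times the macrophage-like level (1.71 to 12.5). That ratio ran from 0.328 to 7.42 over the other settings and was below 1 in 3 of 16. Tumor-like cells were at 0.414 CPM, and T and NK-like cells had 3 UMIs.

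Genes of the heat-shock and immediate-early response, looked at after their values were seen, also differed between the macrophage-like clusters, and Fos and Jun stood in the same order as Tnf. Hspa1a stood at 646 CPM in the interferon-response state, 171 in the Arg1 state, 255 in the proliferating state and 204 in the Igkc/Ighg2b cluster. Fos stood at 1771, 1397, 1220 and 799 CPM, and Jun at 1454, 767, 755 and 482 CPM, in the same order. Monocyte-like cells, with less Tnf and more Il1b than any of these 4 clusters, had 1920 CPM of Fos and 199 CPM of Hspa1a. The part of these genes in the levels of Tnf and Il1b was not tested.

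Il10 (chromosome 1, 131019845 to 131024974, plus strand) had 33 UMIs in all. Of these, 27 lay in 18 macrophage-like cells, or 1.82 CPM (1.20 to 2.66), with at most 3 in a cell and with 9 in the interferon-response state, 9 in the Arg1 state, 6 in the Igkc/Ighg2b cluster and 3 in the proliferating state. All 18 cells also had UMIs of Lyz2 and C1qa, as did 93.7% and 89.7% of the other 1860 myeloid-like cells, so these genes do not set them apart. Monocyte-like cells had 0 Il10 UMIs, which allows up to 2.56 CPM and so does not set them apart from macrophage-like cells. T and NK-like cells had 3 UMIs, or 4.25 CPM, and tumor-like cells also 3.

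Counted over the 10 genes, neutrophil-like cells had 5 higher than macrophage-like cells by the rule of size (Csf1, Il1a, Il1b, Il1rn and Tnf), where 18.5% of all 12174 genes were. The 4 lower ones were Csf1r and the 3 genes Il34, Il18 and Il10 with 0 UMIs, for which the limit of 77.9 CPM lies above the macrophage-like level, and 55.1% of all genes were lower. The higher calls of Il1rn and Tnf ended in 3 of 16 other settings, that of Il1b in 2 and that of Il1a in 1, and that of Csf1 in none. The Csf1 call rested on 10 UMIs in 3 cells. The lower call of Il34 ended in 3 of 16 (highest ratio 5.39). Monocyte-like cells had 1 higher (Il1b), where 4.38% of 12248 genes were, and 2 lower (Tnf and Il10, the latter at 0 UMIs), where 15% were. The Il1b call ended in 2 of the 14 alternatives with a monocyte-like group (lowest ratio 1.80), and the Tnf call in 3 (highest ratio 0.732). DC-like cells had 0 higher, where 10.2% of 12212 genes were, and 6 lower, where 29.2% were. These were Csf1r, Il1rn at a ratio of 0.328 (0.169 to 0.575), Tnf at 0.221 from 2 UMIs (0.0267 to 0.805), and Il1a, Il34 and Il10 at 0 UMIs, which allows up to 8.12 CPM and lies below the macrophage-like level for Il1a alone. The Csf1r call ended in 2 of 16 alternatives (highest ratio 0.761) and the Il1rn call in 3 (highest ratio 0.799).

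The genes most like each member were ranked by Pearson's r of log2 levels over 19 cell groups, all of 1 library and of unequal depth. For Csf1r they were Tlr2 (0.979), Fcgr1 (0.977) and Pld4 (0.972), for Il1rn Nlrp3 (0.987), Cd300c2 (0.939) and Clec4n (0.926), and for Il1b Ier5 (0.905), Slc7a11 (0.874) and Osm (0.870). For Csf1 they were Otud7b (0.876), Prkca (0.839) and Nxn (0.829), and for Il34 Amacr (0.920), Fads2 (0.901) and Nppb (0.895). Tnf was nearest to 5430427O19Rik (0.912), Mefv (0.891) and Treml2 (0.878), Il1a to Hcar2 (0.984), Gm48065 (0.960) and C330011M18Rik (0.955), and Il18 to Zfp992 (0.955), Zeb2os (0.945) and Oas1g (0.937). Among the members themselves, Csf1r and Il1rn had an r of 0.893, Il1a and Il1b 0.769, and Csf1 and Csf1r -0.612. The lowest value was -0.862, between Csf1 and Il18, and the ligands Csf1 and Il34 had 0.206.

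The wider pathway was described with a list of 45 further genes, of which 40 had enough UMIs to compare. In myeloid-like cells 23 of them were at least 2-fold higher and 8 at least 2-fold lower than in tumor-like cells, with a median log2 ratio of 1.64, where 22.6% and 28.8% of all genes were and the median was -0.15. The receptors for colony stimulating factors, Csf2ra, Csf2rb, Csf2rb2 and Csf3r, were higher in 4 of 4 cases, with Csf2ra at 171 CPM in macrophage-like and 1.34 in tumor-like cells and Csf3r at 416 CPM in neutrophil-like cells. Inflammasome genes were higher in 4 of 7 cases, against the 22.6% of all genes. The sensor Nlrp3 stood at 40.9 against 0.246 CPM and the adaptor Pycard at 392 against 2.44 CPM in macrophage-like and tumor-like cells, whereas the protease Casp1 (49.5 against 35.3) and the pore protein Gsdmd (62.5 against 57.9) differed by less than 2-fold. The IL-10 receptor chain Il10ra stood at 79.7 against 0.853 CPM, and the TNF receptor Tnfrsf1b at 65.6 against 8.88 CPM.

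The IL-1 family was mixed, with 3 genes higher (Il1r2, Il18rap and Il18bp) and 5 lower (Il1r1, Il1rap, Il33, Il1rl1 and Sigirr) of 8, beside 22.6% and 28.8% of all genes. The signalling receptor Il1r1, the target of Il1a, Il1b and Il1rn, had 1 UMI in macrophage-like cells, 12 UMIs in tumor-like cells and 93.3 CPM in fibroblast-like cells (32 UMIs), and its partner chain Il1rap 25.2 CPM in tumor-like and 7.57 in macrophage-like cells. The decoy receptor Il1r2 lay highest where Il1b did, at 779 CPM in neutrophil-like cells (30 UMIs), with 173 in DC-like, 29.0 in monocyte-like and 7.44 in macrophage-like cells. The Il18 receptor chain Il18r1 stood at 75.1 CPM in T and NK-like cells (53 UMIs), and the Il18 inhibitor Il18bp at 165 CPM in macrophage-like and 23.0 in tumor-like cells.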

How the data were processed

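Cells of 5 control tumors were mixed by the authors in equal shares and read as 1 library with 10x Genomics 3' v3.1 chemistry. The authors deposited a matrix of raw UMI counts, not normalized, from Cell Ranger. Its header gives release 5.0.1, while the methods of the paper give another release with GRCm38/mm10, and the counts cannot settle this. The submitters' processing notes also name FastQC and Seurat. The 10 genes, the pathway list and the marker lists were chosen with earlier results of these data known.

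Cells over 20% mitochondrial UMIs (667) and the 172 cells with the highest doublet scores (3.71% of those left) were removed, and 0 cells had under 200 genes. Each cell was scaled to 10000 UMIs and put on a log scale. Leiden clustering used 2000 variable genes without the 10 genes and the pathway list, 30 principal components, 20 neighbors and a resolution of 0.5, with resolutions of 1.0 and 0.5 for T and NK-like and myeloid-like cells. A cluster was named where at least 3 genes of a list were raised. The grouping took 5 forms, each changed after clusters, markers and, in the first runs, levels of the 10 genes had been seen. Earlier forms gave 1 name to cells that met the monocyte-like and DC-like lists, named a large tumor cluster fibroblast-like, or left a pathway gene in. Leaving a shallow Hbb-bs/Hba-a1 cluster and a shallow T and NK cluster unnamed was also decided after the clusters were seen. The names may differ from those of the study.

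Levels are summed UMIs of a gene per 1000000 UMIs of the group (CPM), with exact Poisson intervals, exact conditional intervals for ratios and Clopper-Pearson intervals for shares, all at 95%. A count of 0 allows 3 counts. Called cells had 511 to 231902 UMIs, with a median of 9248, and UMIs of rare genes set the precision. The size rule was 2-fold with at least 10 UMIs over both groups, and no p-value was computed. Levels were compared mainly between groups, and ratios of the UMIs of 2 genes were taken within a group. How well each gene was captured was not measured, so differences between genes are differences in UMIs only. Named genes were the 10 genes, the pathway and marker lists, and for each member with at least 50 UMIs the 3 genes with the highest Pearson correlation of log2(CPM + 1) over groups of at least 20 cells, among 12893 genes. Other genes were named after their values were seen, and the text says so. Positions came from GENCODE M21 and promoters from RefSeq. Scripts were tested on simulated data and used leidenalg 0.10.2 and igraph 0.11.9 for clustering, scikit-learn 1.9.0 for components and neighbors, scipy 1.17.1 for intervals, matplotlib 3.10.9 for figures, and pandas 2.3.3 and numpy 2.4.6 under Python 3.11.15.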

Additional observations from a re-analysis of the deposited data

Results flagged for a closer look

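The 667 cells over the mitochondrial limit entered no comparison, and 7 of the 10 genes had more UMIs in them than a count of 0 allows. Csf1 stood there at 109.8 CPM, above the 67.2 CPM of the tumor-like cells that were kept, and Il34 at 55.7 CPM, near their 50.7 CPM. Csf1r stood at 20.8 CPM and Il1b at 17.2 CPM, each above the tumor-like level of 3.39 and 2.51 CPM and far below the macrophage-like level of 472 and 288 CPM. Il1rn was at 4.50 CPM, Il18 at 4.79 CPM and Tnf at 2.25 CPM.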

How the results depend on the processing

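No paired analysis was possible because there was 1 library. The 7 genes higher and 2 lower in myeloid-like than in tumor-like cells became 8 higher with no minimum of UMIs and otherwise stayed 7 and 2 in number under the alternatives run. The percent of a gene's UMIs in myeloid-like cells moved beyond its counting interval as follows, with the cause not tested. For Csf1r, Il1b, Il1rn and Tnf, in that order, it was 91.5, 92.4, 92.4 and 84.4% with another seed, 94.0, 93.5, 92.4 and 86.6% with at least 500 genes, 94.4, 92.2, 91.2 and 85.2% with grouping form 3, 92.3, 92.0, 90.9 and 85.6% at higher resolutions, 92.6, 92.4, 91.9 and 85.1% with the listed genes allowed in clustering, and 90.8, 92.2, 90.9 and 84.7% with no mitochondrial limit. For Csf1r, Il1b and Il1rn it was 93.1, 92.9 and 91.2% with doublets kept and 94.3, 92.9 and 91.6% with grouping form 4. For Csf1r and Il1b it was 94.5 and 93.4% with more variable genes and 95.1 and 95.1% with a limit of 10%. Csf1 moved to 4.61% with another seed and 4.60% at lower resolutions. With the unnamed Hbb-bs/Hba-a1 cells counted as myeloid-like it was 4.02% for Csf1, 2.91% for Il34, 96.5% for Csf1r, 96.4% for Il1b and 95.4% for Il1rn. Against macrophage-like cells, the 5 genes higher in neutrophil-like cells became 3 at lower resolutions and 2 with another seed. The 3 at lower resolutions were Csf1, Il1a and Il34, the last at a ratio of 2.61 although it was called lower in the main grouping. For monocyte-like cells 1 higher and 2 lower became 0 and 0 with at least 500 genes and 0 and 1 with the listed genes allowed, and 1 lower with grouping form 3. For DC-like cells 0 higher and 6 lower became 1 and 3 with grouping form 2, and 1 higher with grouping form 4. These counts, the grouping forms and the unnamed cells were alternatives chosen after seeing the data. Neutrophil-like cells became 189 at lower resolutions and 184 with another seed, with Il1b at 479 and 363 CPM and no fibroblast-like group. Monocyte-like cells were absent as a group in grouping forms 2 and 4. Levels of the single macrophage-like clusters were not recomputed. Depth limits most values in neutrophil-like and fibroblast-like cells, and all values of Csf2 and Il10.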

Other observations

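Fibroblast-like cells, in which the Csf1 level was above that of tumor-like cells in the main grouping, also held several other cytokines of the pathway list. Csf3, the granulocyte factor, stood at 105 CPM in them from 36 UMIs and had 3 UMIs in tumor-like cells. Il6 stood at 72.9 CPM from 25 UMIs against 0.473 CPM in macrophage-like cells, the alarmin Il33 at 146 CPM from 50 UMIs against 10.9 CPM in tumor-like cells, and Lif at 46.7 CPM from 16 UMIs. Their TNF receptor Tnfrsf1a stood at 190 CPM, with 103 CPM in macrophage-like and 62.1 CPM in tumor-like cells.

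Other list genes were highest in immune groups. Osm, a cytokine of the IL-6 family, stood at 623 CPM in neutrophil-like cells from 24 UMIs, 247 CPM in monocyte-like, 68.3 CPM in macrophage-like and 21.7 CPM in DC-like cells. Il1f9, another IL-1 family cytokine, had 4 UMIs, all in neutrophil-like cells. Ltb, a TNF family ligand, stood at 825 CPM in T and NK-like cells, where Lta had 15 UMIs. DC-like cells had the GM-CSF receptor chain Csf2rb at 206 CPM against 94.7 CPM in macrophage-like cells, the TNF receptor adaptor Traf1 at 203 CPM against 54.0 CPM in tumor-like cells, and Il12b at 35.2 CPM from 13 UMIs. Il12a had 0 UMIs in every group.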
